A study of Mus musculus with 6 samples.

Results

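The 10 genes described here are 7 fibroblast growth factors (Fgf1, Fgf2, Fgf3, Fgf7, Fgf9, Fgf13 and Fgf14) and 3 of their receptors (Fgfr1, Fgfr2 and Fgfr3), out of 38926 gene symbols counted. They were taken from the count tables by symbol, from a list selected on this family with its fold changes of burn over control in these libraries known. Their values in that comparison are therefore a description. Counts of members called are given beside the share of all genes called, and nothing is read from them. RNA came from dorsal root ganglia, which hold the cell bodies of sensory neurons with their glia, taken whole at lumbar levels L3, L4 and L5 of male wild type C57BL/6 mice aged 6 to 8 weeks. The burn group, taken 3 days after injury, had 3 libraries, and the control group, for which the labels give no time or sham treatment, also had 3. The labels do not say which skin was burned or how, whether ganglia of several mice were pooled, or whether the libraries of a group came from separate mice. P-values therefore measure the spread between these libraries, which may be technical. The series text says that burn 3 is ipsilateral, and the side of the others is not given.

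Fibroblast growth factors are small proteins that mostly act outside the cell. They bind heparan sulphate and tyrosine kinase receptors together, the receptor recruits the adaptor Frs2, and the signal runs through Ras and the MAP kinases to target genes, many of which are inhibitors of the same signal. A separate branch, the FGF homologous factors Fgf11, Fgf12, Fgf13 and Fgf14, stays inside the cell and binds the tails of voltage-gated sodium channels, which set the firing of sensory neurons. In peripheral nerve, FGF signalling is known for its part in Schwann cell and neuron survival and in axon growth.

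Reads counted in genes numbered 17273908 to 81968142 per library. Burn 3 and control 3, at 70002671 and 81968142, lay above the widest gap in depth, a ratio of 1.94, and are called the deeper pair. The other 4 libraries are called the shallower ones, and differences are also given within each set. Atf3, a stress-response transcription factor of injured neurons, checked the burn label: it averaged 72.2 ± 10.8 CPM after the burn and 6.97 ± 0.234 CPM in controls (SD, n = 3 each; edgeR adjusted p 0.000387). CPM, the unit of all levels here, is the read count relative to the scaled size of the library. The labels call the samples both neurons and whole ganglia, and all 10 sensory neuron markers, 8 satellite glia markers and 8 Schwann cell markers had reads in every library. Mitochondrial reads were 5.44% in burn 3 and 4.41% in control 3, and 1.71% to 2.70% in the shallower libraries. The summed level of 10 skeletal muscle markers ran from 1556 to 9542 CPM in burn libraries and from 604 to 10379 CPM in controls. All 11 markers of spinal cord and central glia also had reads in every library. Their summed level was 184 to 261 CPM in burn libraries and 148 to 157 CPM in controls, without overlap. Slc17a7, a vesicular glutamate transporter, was the largest part of that sum in every library but burn 3. Its own groups overlapped, at 82.8 to 98.2 CPM in burn libraries and 71.0 to 103.7 CPM in controls. Whether its reads came from spinal cord or from ganglion neurons was not tested, so the sum does not measure spinal cord alone.

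Fgf3 was the 1 member of 10 whose groups did not overlap, against 7.24% of all tested genes, 4.33% with burn above. It lies on chromosome 7 at 144838083 to 144844436 on the plus strand of GRCm38, with 3 exons in its longest GENCODE transcript, and encodes a secreted factor known from inner ear development. Windows of 250 bases before the RefSeq start (build GRCm38.p6) were found for 8 of the 10 members, 12 windows in all, and not for Fgf1 and Fgfr1. The window of Fgf3 is shown because it is the member with the highest fold change, and that of Fgf4 because Fgf4 is its nearest protein-coding neighbour and its groups overlapped. GENCODE places a start of each gene further upstream, so both windows lie inside the GENCODE spans. Both are printed 5′ to 3′ on the plus strand, from chr7:144838362-144838611 for Fgf3 and chr7:144861136-144861385 for Fgf4. Capitals mark the 2 longest unbroken runs of C and T in the Fgf3 window, which are of equal length, and the 2 GC boxes (GGGCGG) in the Fgf4 window.
Fgf3: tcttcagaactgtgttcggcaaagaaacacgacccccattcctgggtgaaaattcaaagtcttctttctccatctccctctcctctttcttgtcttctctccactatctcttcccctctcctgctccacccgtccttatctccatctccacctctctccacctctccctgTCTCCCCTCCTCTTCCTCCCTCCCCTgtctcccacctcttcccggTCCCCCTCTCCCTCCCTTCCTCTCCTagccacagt
Fgf4: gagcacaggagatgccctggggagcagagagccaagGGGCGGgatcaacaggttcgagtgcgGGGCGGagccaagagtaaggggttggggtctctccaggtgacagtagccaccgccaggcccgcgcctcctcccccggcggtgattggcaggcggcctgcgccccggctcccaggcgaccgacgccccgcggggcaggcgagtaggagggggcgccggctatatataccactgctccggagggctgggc

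The Fgf3 window was rich in pyrimidines. C and T made up 79.2% of its letters, against 42.4% in the Fgf4 window and a median of 50% over 32851 windows of the same length, and 0.0761% of windows reached the share of Fgf3. Its 2 longest runs of C and T were 26 bases each, a length that 1.04% of windows reached, against 11 bases for Fgf4. The AP-1 motif TGACTCA, the CRE motif TGACGTCA, the shorter CRE core TGACG, which is also part of the full CRE, the TATA motif TATAAA and the GC box GGGCGG were searched on both strands. None was in the Fgf3 window. Over all windows these motifs were in 4.46%, 1.55%, 17.8%, 12.4% and 32.7%. Among the 12 member windows the AP-1, CRE and TATA motifs were in 0, the CRE core in 2 (Fgf2 and Fgf9) and the GC box in 6 (Fgf2, Fgf14, both windows of Fgfr3 and 2 of the 4 windows of Fgf13). A match or its lack describes these letters only.

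Fgf3 had 30, 39 and 38 reads in burn libraries 1, 2 and 3, against 5, 0 and 10 reads in control libraries 1, 2 and 3. On the scaled level these were 1.33, 1.29 and 0.578 CPM after the burn, against 0.137, 0 and 0.126 CPM in controls. Every burn library lay above every control library, and burn 3, the deepest burn library, was the lowest of its group. The mean was 1.06 ± 0.422 CPM after the burn and 0.0874 ± 0.0759 CPM in controls (SD, n = 3 each), and the fitted log2 fold change was 3.24 (SE 0.59). Summed over libraries, there were 107 reads after the burn and 15 in controls. The absence of reads in control 2 allows a level of up to 0.167 CPM there, set by 3 reads and covering counting error only. In these whole-ganglion samples more cells with the transcript and more transcript per cell cannot be told apart.

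**Figure D1:**
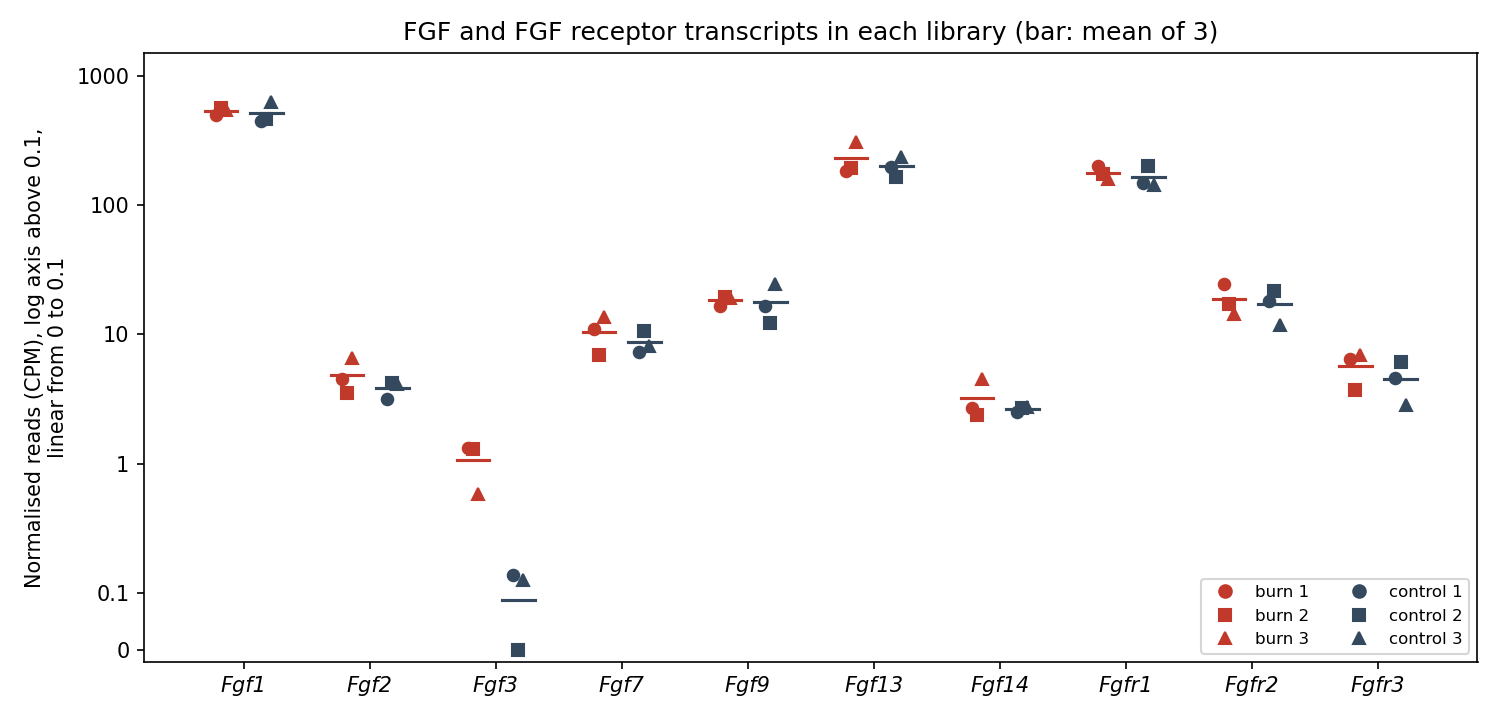
Normalised reads (CPM, log axis above 0.1) of the 10 members in each of the 6 libraries, burn left of control for each gene. Points are libraries and bars the mean of 3. Fgf3 is the member whose burn points, 0.578 to 1.33 CPM, all lie above its control points, 0 to 0.137 CPM. The same held for 4.33% of all tested genes.

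For Fgf3 every burn library lay above every control, so neither a split by depth nor leaving out libraries could turn the sign of the difference. On the log2 scale, burn minus control was 1.85 in the deeper pair, 1 library against 1, and 3.86 among the 4 shallower libraries. Both values used a prior count of 2. With 5, 0 and 10 reads in the controls, their size depends in part on that prior. Over 15 alternative settings the log2 fold change ran from 2.97 without control 2 to 3.93 with the replicate number as a block. These are 7.82-fold and 15.2-fold. The fit with the block used the 4 shallower libraries alone, which gave 3.82 without it. Without burn 3 the value was 3.58, and without burn 1 it was 3.06. Fgf3 passed the filter on low counts, 0.303 CPM in at least 3 libraries, through its 3 burn libraries alone.

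Of 11 spinal cord and central glia markers, 11 also had positive log2 fold changes, from 0.08 for Slc17a7 to 2.18. edgeR called 0 of them, limma-voom 0 and DESeq2 1. In edgeR 9 were higher at an unadjusted p under 0.05, against 2.04% of all tested genes, and in 6 every burn library lay above every control, against 4.33%. Their median was 2.40 in the deeper pair and 0.77 among the shallower libraries. Gad2, an enzyme of GABA synthesis, had 2.43, 1.46 and 3.41 CPM in burn libraries 1, 2 and 3, against 0.847, 0.723 and 0.327 CPM in controls 1, 2 and 3. The summed level of the 11 markers was highest in burn 3, at 261 CPM, the burn library with the lowest Fgf3 level. The part of these transcripts in the Fgf3 values was not tested.

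The protein-coding genes with counts within 200 kb of Fgf3 did not show its pattern. LTO1, 70.7 kb away, had no counts under that symbol. Fgf4, which encodes a growth factor of early embryos, starts 2.93 kb beyond the end of Fgf3 on the same strand. It had 4.42, 2.58 and 4.96 CPM in burn libraries 1, 2 and 3, against 3.06, 4.51 and 3.25 CPM in controls 1, 2 and 3. The groups overlapped, and Fgf4 did not pass in edgeR (adjusted p 0.9998), with a log2 fold change of 0.16 (SE 0.29). Fgf15, a gut hormone gene of bile acid control, had 2, 0 and 3 reads in burn libraries and 0, 0 and 12 reads in controls. Fgf15 was not tested. Ccnd1, a cell cycle cyclin 85.5 kb away, averaged 58.9 ± 10.3 CPM after the burn and 52.1 ± 5.41 CPM in controls (SD, n = 3 each; edgeR adjusted p 0.9998). Ano1, a calcium-activated chloride channel of heat-sensing neurons 86.1 kb away on the other side, stood at 0.05 on the same scale as Fgf4 (SE 0.14; adjusted p 0.9998 in edgeR).

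**Figure D2:**
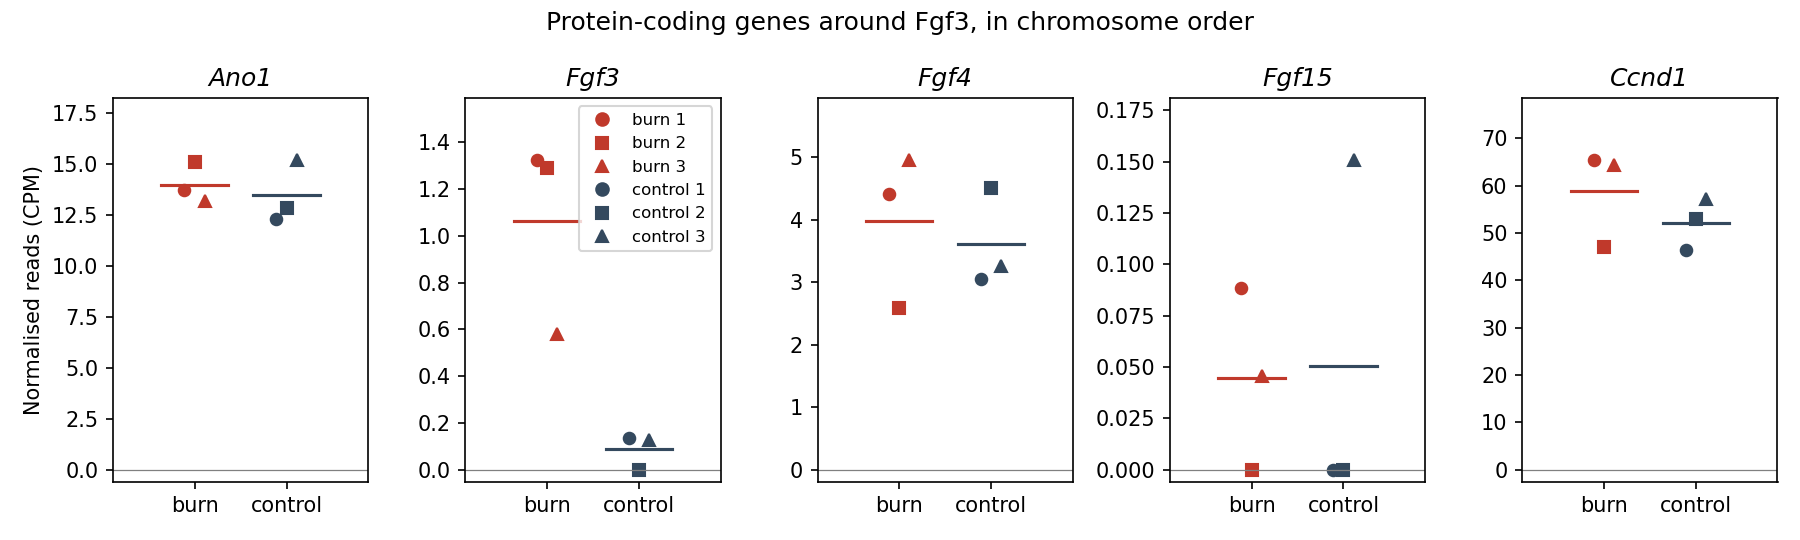
Normalised reads (CPM, linear axes that differ between panels) of 5 protein-coding genes, Fgf3 and those around it, in chromosome order, burn left of control. LTO1, which had no counts under that symbol, is not shown. Points are libraries and bars the mean of 3. The groups separate for Fgf3, while Fgf4, 2.93 kb away, spans 2.58 to 4.96 CPM in burn libraries and 3.06 to 4.51 CPM in controls.

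The transcripts whose levels most resembled Fgf3 across the 6 libraries were Atf3, Gpr151 and Ecel1. Likeness was the root mean square difference of log2 CPM, each gene centred on its own mean, among genes with a mean of at least 1 CPM, and it was 0.67, 0.71 and 0.81. Gpr151, an orphan G-protein-coupled receptor, had 17.8, 16.4 and 9.73 CPM in burn libraries 1, 2 and 3, against 1.12, 1.11 and 1.01 CPM in controls. Ecel1, an endopeptidase-like protein, had 3.84, 4.40 and 2.34 CPM after the burn, against 0.355, 0.556 and 0.540 CPM in controls. In all 3 genes, as in Fgf3, burn 3 was the lowest burn library. The likeness rests on the comparison by which Fgf3 was chosen and is not independent of it.

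The other secreted ligands overlapped between groups. Fgf1, acidic FGF, which binds all FGF receptors and leaves cells without a classical signal peptide, was the most abundant member. It had 496, 562 and 545 CPM in burn libraries 1, 2 and 3, against 446, 467 and 629 CPM in controls 1, 2 and 3. Control 3 was the highest library and control 1 the lowest, so controls spanned the whole burn range. Its log2 fold change was 0.06 (SE 0.16), with -0.21 in the deeper pair and 0.21 among the shallower libraries. Fgf1 lies on chromosome 18 at 38838673 to 38929472, and its exons share no bases with exons of another annotated gene. The spans of Arhgap26 and AC110730.1, both on the other strand, overlap that of Fgf1.

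Fgf2, basic FGF, a mitogen for glia and a survival factor for neurons, had 4.51, 3.51 and 6.57 CPM in burn libraries, against 3.17, 4.23 and 4.10 CPM in controls. Burn 3 was above every other library, while burn 2 lay inside the control range. On the log2 scale burn over control was 0.35 (SE 0.26), with 0.68 in the deeper pair and 0.12 among the shallower libraries, and 0.08 without burn 3. Fgf2 lies on chromosome 3 at 37348346 to 37410108. Exons of Nudt6 on the other strand cover 9.44% of its exon bases. The sources used here do not say whether counting used strand, so reads of the 2 genes cannot be told apart there.

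Fgf7, keratinocyte growth factor, is made by mesenchymal cells and acts on epithelia through the IIIb form of Fgfr2. It had 10.9, 6.95 and 13.6 CPM in burn libraries, against 7.29, 10.6 and 8.16 CPM in controls. Burn libraries held both the highest and the lowest value. Its log2 fold change was 0.28 (SE 0.26), with 0.74 in the deeper pair and -0.02 among the shallower ones. It lies on chromosome 2 at 126034658 to 126091185. The summed level of 9 fibroblast and sheath markers, 3677 to 7195 CPM in burn libraries and 4469 to 8406 CPM in controls, also overlapped.

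Fgf9, a secreted factor that signals through Fgfr2 and Fgfr3, lies on chromosome 14 at 58070547 to 58112720. It had 16.6, 19.3 and 19.2 CPM in burn libraries, against 16.6, 12.3 and 24.3 CPM in controls. The controls held the highest and the lowest library, and the spread between them, an SD of 6.08 CPM, exceeded the burn SD of 1.55 CPM (n = 3 each). Burn over control was 0.04 on the log2 scale (SE 0.24), with -0.34 in the deeper pair and 0.32 among the shallower libraries.

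Both FGF homologous factors among the members overlapped between groups as well. Fgf13, which modulates sodium channels and has been linked to heat pain in mouse sensory neurons, had 184, 195 and 309.5 CPM in burn libraries, against 197, 166 and 235 CPM in controls. Burn 3 was the highest and control 3 the next, and the shallower libraries of both groups lay between 166 and 197 CPM. Its log2 fold change was 0.20 (SE 0.23), and -0.06 without burn 3. Fgf13 lies on chromosome X at 59062145 to 59568071. Fgf14, a modulator of sodium channels at the axon initial segment, on chromosome 14 at 123977907 to 124677127, had 2.69, 2.38 and 4.52 CPM in burn libraries, against 2.51, 2.67 and 2.73 CPM in controls. Its controls lay close together, with an SD of 0.111 CPM (n = 3), and burn 3 stood above them while burn 2 stood below. The log2 fold change was 0.29 (SE 0.27), with 0.72 in the deeper pair and -0.03 among the shallower libraries.

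The 3 receptors overlapped between groups too. Fgfr1, the receptor through which FGF2 promotes neurite growth, lies on chromosome 8 at 25513654 to 25575718. It had 200.2, 174 and 160.0 CPM in burn libraries, against 148, 199.8 and 143 CPM in controls. Burn 1 and control 2 were level at the top, and the log2 fold change was 0.12 (SE 0.16), with 0.16 in the deeper pair and 0.12 among the shallower libraries. Fgfr2, whose isoforms divide epithelial from mesenchymal ligands, had 24.5, 17.3 and 14.4 CPM in burn libraries, against 18.3, 21.7 and 11.8 CPM in controls. In both groups the deeper library was the lowest, and the log2 fold change was 0.12 (SE 0.27). The GENCODE span of Fgfr2 on chromosome 7, 130162451 to 133123350, includes a transcript with 314 exon bases shared with Ctbp2. Gene counts do not separate the isoforms.

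Fgfr3, a receptor of astrocytes and oligodendrocyte precursors in the central nervous system that also restrains bone growth, had the second highest fold change. It had 6.49, 3.71 and 6.87 CPM in burn libraries, against 4.56, 6.07 and 2.83 CPM in controls. The ranges crossed, with control 2 above burn 2 and control 3 the lowest of all. The log2 fold change of 0.37 (SE 0.34) joined 1.27 in the deeper pair and -0.10 among the 4 shallower libraries. Without control 2 it was 0.63. In fits on the 4 shallower libraries alone it was -0.04, and -0.07 with the replicate number as a block. Aqp4, a water channel of astrocytes, stood at 31.7, 24.9 and 41.9 CPM in burn libraries, against 28.4, 17.7 and 20.4 CPM in controls, and the part of central glia in the Fgfr3 values was not tested. The genes closest to Fgfr3 in pattern over the 6 libraries were Hlf, a circadian-output transcription factor (0.10 by the same measure), Pabpc1, a poly(A)-binding protein (0.13), and Atp1b2, a sodium pump subunit of glia (0.14). Fgfr3 lies on chromosome 5 at 33721674 to 33737068, and G630022F23Rik, annotated on the other strand, covers 13.9% of its exon bases.

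**Figure D3:**
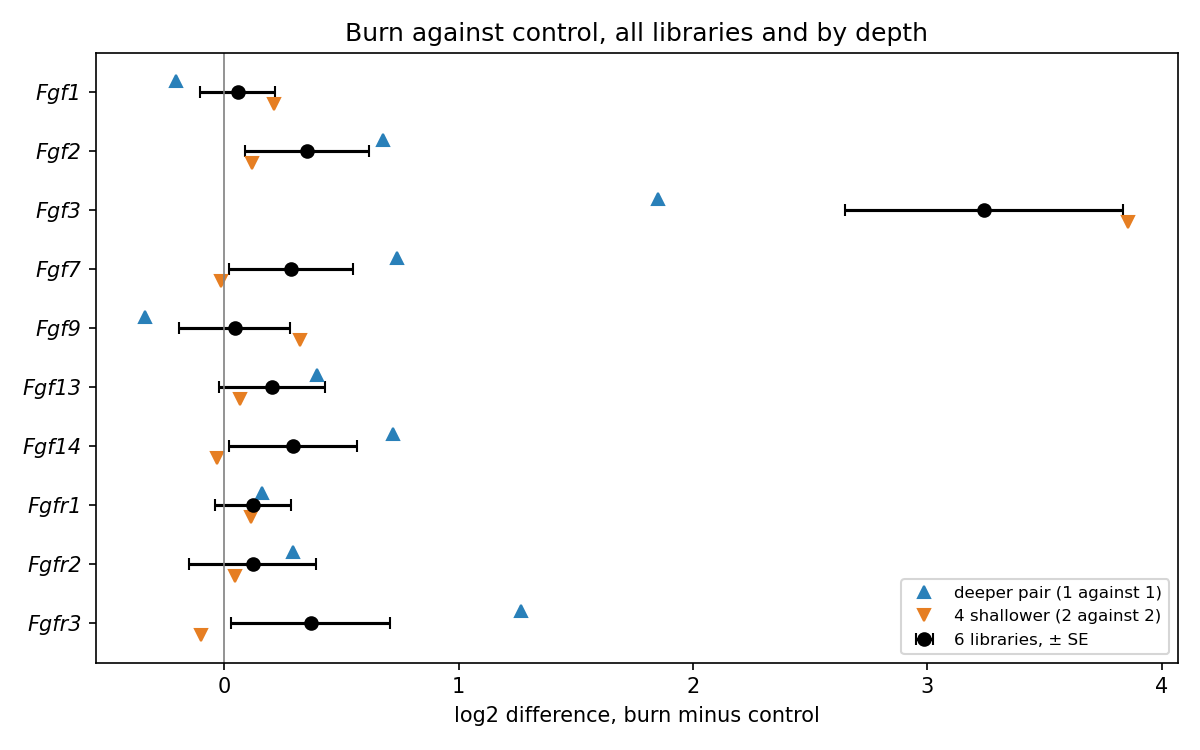
Log2 difference of burn minus control for the 10 members. Black points are the fit over 6 libraries with its standard error, blue triangles the deeper pair and orange triangles the 4 shallower libraries. Fgf3 lies right of 0 at both depths, at 1.85 and 3.86, while Fgfr3 lies at 1.27 in the deeper pair and -0.10 in the shallower libraries.

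Several members besides Fgfr3 differed between the depths. Differences of 0.5 or more in the deeper pair stood at Fgf2, Fgf3, Fgf7, Fgf14 and Fgfr3, and among the shallower libraries at Fgf3. The median over the 10 members was 0.54 in the deeper pair and 0.09 among the shallower libraries, and over all tested genes 0.04 and 0.00. Each group has 1 deeper library, so the difference within the deeper pair has no replicate check.

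Of the 10 members edgeR called 0 at an adjusted p under 0.05, where it called 0.0228% of 17534 tested genes. At an unadjusted p under 0.05 there was 1 member, Fgf3, higher after the burn, against 2.96% of tested genes, 2.04% higher and 0.924% lower. DESeq2 called 1 member, Fgf3, against 0.104% of the 26927 genes with an adjusted p, and limma-voom called 0, against 0.0171%. Groups did not overlap in 1 of 10 members, with burn above, against 7.24% of tested genes, 4.33% with burn above and 2.91% with burn below. All 10 fitted log2 fold changes were positive, with a median of 0.24 against 0.01 over all tested genes. The members were chosen with this comparison known, and Fgf3 was tested at all through its burn libraries. The signs of 6 members, Fgf1, Fgf9, Fgf13, Fgf14, Fgfr2 and Fgfr3, turned under at least 1 of 15 alternative settings.

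Levels of different genes were compared as CPM per kilobase of annotated exon. Fgf1 stood highest at 95.9 ± 12.4, followed by Fgf13 at 53.4 ± 12.9, Fgfr1 at 17.3 ± 2.52, Fgf9 at 3.89 ± 0.857, Fgf7 at 2.95 ± 0.796 and Fgfr2 at 1.74 ± 0.450 (mean ± SD over 6 libraries). Fgfr3 at 0.711 ± 0.229, Fgf14 at 0.698 ± 0.190 and Fgf2 at 0.641 ± 0.176 lay within each other's spread, and Fgf3 was last at 0.248 ± 0.258. Of the 9 neighbouring pairs in this order, 5 kept it in all 6 libraries. Those that did not were Fgf9 above Fgf7 (4 of 6 libraries), Fgfr3 above Fgf14 (3 of 6), Fgf14 above Fgf2 (5 of 6) and Fgf2 above Fgf3 (5 of 6). The last exception was burn 2, where Fgf3 stood at 0.555 and Fgf2 at 0.518. With the length of the longest transcript in place of all exons, Fgfr2 moved above Fgf7 and the other places were kept.

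**Figure D4:**
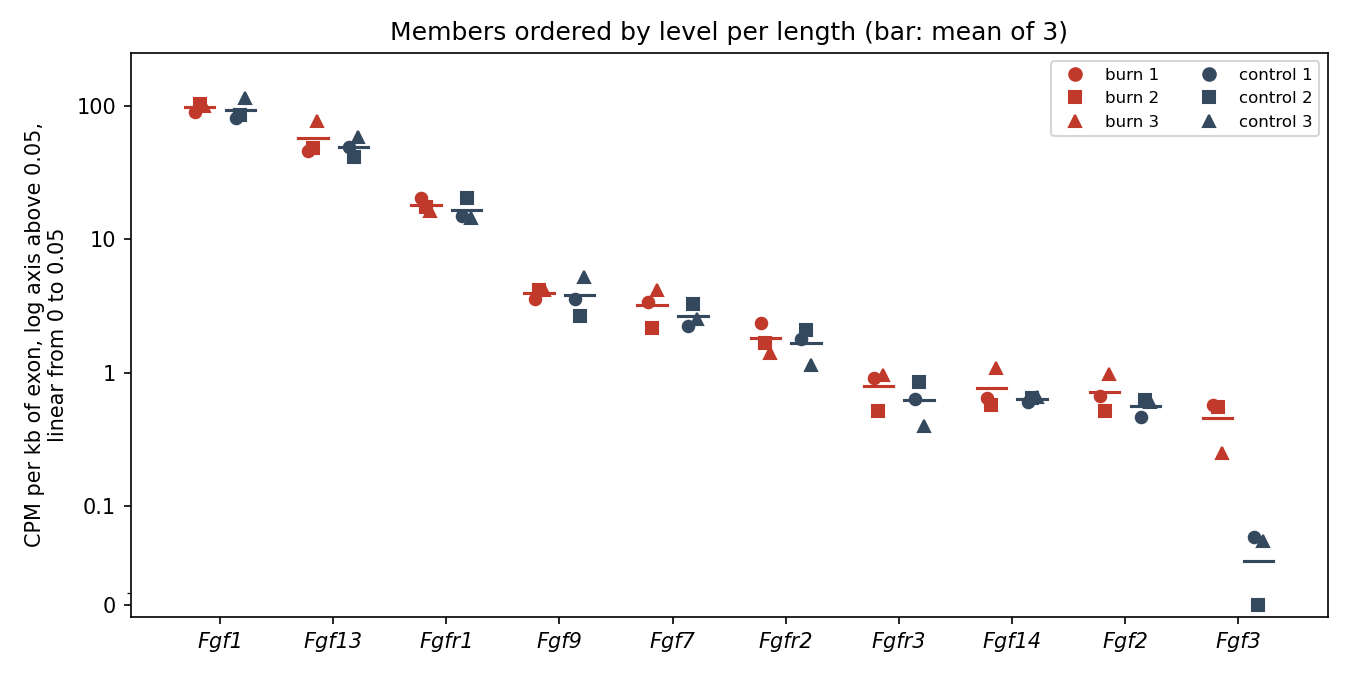
Level per length (CPM per kb of exon, log axis above 0.05) of the 10 members in order of their mean, burn left of control. Points are libraries and bars the mean of 3. Fgf1 lies at 81.6 to 115 in all libraries, and Fgf3 at 0.248 to 0.570 in burn libraries and 0 to 0.0587 in controls.

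A few genes made up most of the family's level. Fgf1, Fgf13 and the homologous factor Fgf12, which is not a member, held 90.7% ± 1.36 of the summed level per kilobase of 22 FGF genes after the burn and 91.0% ± 1.34 in controls (SD, n = 3 each). Fgf12 averaged 44.2 ± 8.81 CPM per kilobase after the burn and 45.2 ± 12.7 in controls, between Fgf13 and Fgfr1. Among the 4 signalling receptors, Fgfr1 held 87.3% ± 1.44 of the summed level after the burn and 87.6% ± 2.32 in controls. Fgfr2 held 8.66% ± 1.28 after the burn and 8.74% ± 1.53 in controls, and Fgfr3 3.87% ± 1.28 after the burn and 3.25% ± 0.681 in controls. The shares overlapped between groups for each of these 3 receptors. Fgfr4 had 4, 4 and 7 reads in burn libraries and 9, 8 and 8 in controls.

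None of the other FGF ligands passed. Of 15, 7 were tested, 0 passed in edgeR, 0 at an unadjusted p under 0.05 and 0 in DESeq2 or limma-voom. Fgf11, a homologous factor, had a log2 fold change of 0.21 (SE 0.16), Fgf10, a factor of limb and lung budding, 0.72 (SE 0.58), and Fgf5, a factor of the hair cycle, -0.30 (SE 0.30). Fgf12 stood at -0.03 (SE 0.24) and Fgf18, a factor of bone and cartilage, at -0.18 (SE 0.21). The 8 untested genes were sparse. Fgf8 had 1 read over all 6 libraries, and Fgf16 had the most of them, 38.

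The other receptors, co-receptors and binding partners did not pass either. Of 10 genes 8 were tested, 0 were called by edgeR, 0 were under an unadjusted p of 0.05 and 0 were called by DESeq2 or limma-voom. Fgfrl1, a receptor without a kinase domain, averaged 11.02 ± 2.33 CPM after the burn and 10.8 ± 2.23 CPM in controls (SD, n = 3 each). The adhesion molecules Cdh2 and Ncam1, which can bind FGF receptors, had log2 fold changes of 0.19 (SE 0.16) and 0.14 (SE 0.13). Kl, the co-receptor of Fgf23, had -0.24 (SE 0.29). Klb, the co-receptor of Fgf21, was not tested, with 34 reads over the burn libraries and 32 over the controls.

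Heparan sulphate genes, which carry and edit the sugar chains that FGFs need, had a median log2 fold change of 0.04 over 18 tested genes, with 0 calls by any of the 3 tools and 0 at an unadjusted p under 0.05. Sdc1, a syndecan, had 50.9, 45.5 and 36.7 CPM in burn libraries, against 36.4, 38.2 and 35.2 CPM in controls. Burn 3 lay inside the control range, and the log2 fold change was 0.28 (SE 0.14, edgeR adjusted p 0.9998). Gpc3, a glypican, stood at 0.21 (SE 0.20) and Hs6st1, a sulphotransferase, at -0.10 (SE 0.11).

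Among 18 adaptors and relays of the receptor signal 0 were called by any tool and 0 were under an unadjusted p of 0.05 in edgeR. Sos1, which loads Ras with GTP, had 99.2, 96.1 and 175 CPM in burn libraries, against 91.9, 78.7 and 90.8 CPM in controls. Groups did not overlap in 2 of the 18 genes, Sos1 and Grb2, both with burn above, against 4.33% of all tested genes. In Sos1 burn 3 stood far above the other 5 libraries. The log2 fold change of Sos1 was 0.50 (SE 0.23, edgeR adjusted p 0.9998), with 0.94 in the deeper pair and 0.20 among the shallower libraries. Frs2, the docking protein of FGF receptors, stood at 0.39 (SE 0.19) and its relative Frs3 at -0.26 (SE 0.15).

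Feedback and target genes of FGF signalling were not called. Of 16 genes 15 were tested, 11 had positive and 4 negative log2 fold changes, and the median was 0.18, against 0.01 over all tested genes. None passed in edgeR, DESeq2 or limma-voom, and 2, Spred2 and Etv5, were higher at an unadjusted p under 0.05, against 2.04% of all tested genes. The median of the list was -0.06 in the deeper pair and 0.17 among the shallower libraries. Spred2, an inhibitor of Ras signalling, had 45.1, 40.2 and 41.6 CPM in burn libraries, against 32.8, 37.3 and 33.4 CPM in controls. Spred2 was the 1 tested gene of this list whose groups did not overlap, with burn above, against 4.33% of all tested genes. Its log2 fold change was 0.30 (SE 0.11; adjusted p 0.9998 in edgeR). It was 0.32 in the deeper pair and 0.28 among the shallower libraries. Etv5, a transcription factor induced by FGF, had 75.5, 79.5 and 63.7 CPM in burn libraries, against 54.7, 51.3 and 66.7 CPM in controls. Control 3 lay above burn 3, with a log2 difference of -0.07 in the deeper pair and 0.55 among the shallower libraries. Spry4, an inhibitor of receptor tyrosine kinase signalling, stood at 0.23 (SE 0.14), and Dusp6, a phosphatase of ERK, averaged 34.6 ± 3.36 CPM after the burn and 34.5 ± 2.70 CPM in controls (SD, n = 3 each).

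The sodium channel genes that FGF homologous factors partner also gave 0 calls by any of the 3 tools and 0 at an unadjusted p under 0.05 in edgeR, over 12 tested genes with a median log2 fold change of 0.03. Scn2a1, a channel of central neurons, had 17.2, 16.7 and 24.2 CPM in burn libraries, against 15.4, 13.1 and 16.0 CPM in controls. It was the 1 gene of the 12 whose groups did not overlap, with burn above, against 4.33% of all tested genes. The log2 fold change was 0.38 (SE 0.18, edgeR adjusted p 0.9998). Scn3a, a channel of embryonic and injured neurons, stood at 0.28 (SE 0.20) and Scn2b, a beta subunit, at -0.20 (SE 0.12). Scn8a and Scn9a, channels of sensory neurons, stood at 0.17 (SE 0.15) and 0.11 (SE 0.26). A miss of the threshold with 3 libraries a group does not show that these genes were level.

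**Figure D5:**
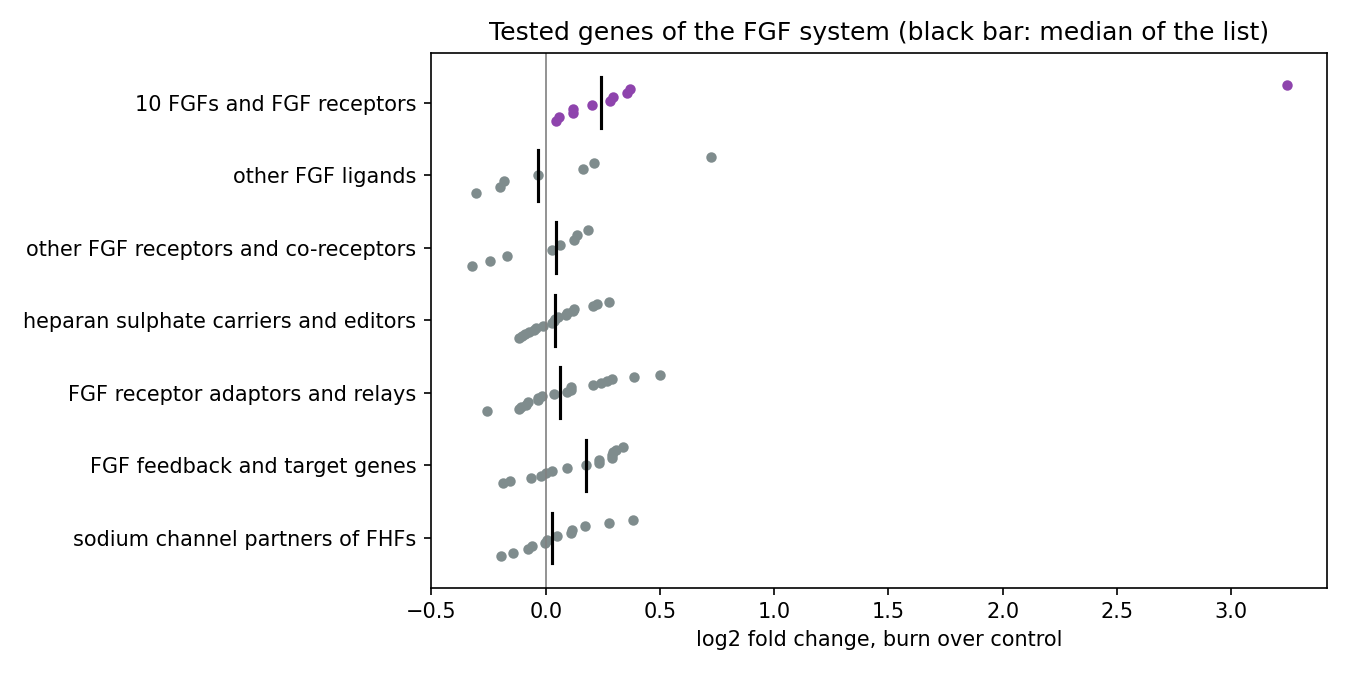
Log2 fold change of burn over control for the tested genes of the FGF system, 1 point a gene, with the median of each list as a black bar. Fgf3 lies alone at 3.24, and the genes of the other lists lie between -0.32 and 0.72.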

How the data were processed

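The authors deposited raw counts of reads per gene symbol, 1 file per library. Per the submitters' processing notes, STAR, SAMtools and HTSeq were used with mm10 (GRCm38). The sources used here give neither the annotation release nor the strand setting. The 5 tally lines, which name no gene, held 49.2% to 56.2% of entries and were left out. Reads carry no molecular identifiers. Counts were tested with edgeR 4.0.16 in R 4.3.3 (filterByExpr with a minimum count of 10, TMM, glmQLFit with robust set, glmQLFTest, two-sided, group as the only term), with Benjamini-Hochberg adjustment over 17534 genes and calls at an adjusted p under 0.05. The test was tested on simulated data. Standard errors are the absolute log2 fold change over the square root of F. DESeq2 1.42.0, limma-voom (limma 3.58.1), other scalings and filters, a replicate block, a depth term and leaving out libraries were alternatives. Within-depth differences used log2 CPM with a prior count of 2. Pairs of libraries within a group had a chi-square of 40.5 to 189 for each degree of freedom, so none was counted as a repeat. GENCODE mouse release 21 (GRCm38) gave coordinates, exon lengths and exon overlaps, and RefSeq gave promoters.

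The members and lists were chosen with earlier results of these data known. The text names all members, Atf3, called genes and the 3 lowest p-values of each FGF list, a few fixed receptors, feedback genes and channels, and the 3 genes nearest in pattern to the 2 members with the highest fold change. Neighbours of Fgf3 and the markers Gad2 and Aqp4 were chosen after their values were seen.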

Additional observations from a re-analysis of the deposited data

How the results depend on the processing

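Over all genes edgeR called 4, all higher after the burn, and this count moved with the setting. It was 14 with no filter (14 higher), 28 with DESeq2 (28 higher), 38 with a depth term (17 higher) and 15 in the 4 shallower libraries (11 higher), and 1 to 6 when a library was left out (1 without burn 2, control 1, control 2 or control 3). Atf3 was called in every setting run. DESeq2 called 1 of the 10 members, Fgf3, against 0.104% of the 26927 genes with an adjusted p. limma-voom called 0, against 0.0171% of tested genes, and edgeR under its alternatives called 0. The members were chosen with this comparison known, so nothing is read from these counts. Genes of the FGF lists outside the members gave 0 calls in all 15 alternatives. Leaving out a library left 5 to 6 neighbouring pairs of the level order in place in every remaining library. Libraries with a shared number in their titles did not deviate together (correlations of -0.09 for number 1 and -0.06 for number 2). Burn 3 carries no number. Burn 1 with control 2 and burn 3 with control 3 each had 0.44, and burn 2 with control 1 had 0.38. The remaining pairs had -0.29 to -0.25. The fit with the replicate block, on the 4 libraries numbered 1 and 2, which are also the shallower ones, called 4 genes and no member. Fgf3 rests on 122 reads in 6 libraries, so its level in controls is set by few reads.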
